A study of Drosophila melanogaster with 4 samples.

Results

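The genes described here are 31 genes of the Drosophila melanogaster testis, picked by name: spermatocyte transcription regulators, sperm tail and sperm chromatin proteins, sperm leucyl aminopeptidases, and other male-specific transcripts of developing sperm. All 31 were found among the 17628 gene identifiers of the deposited count table, 29 under their current symbol and 2, Mst35Ba and Mst35Bb, under the current names ProtA and ProtB. Messenger RNA of whole flies of the Oregon strain, aged 5 days, had been sequenced after feeding on food with glucose or with galactose. Each diet had 2 libraries, called glucose 1 and 2 and galactose 1 and 2 below. The labels give neither the sex of the flies nor their number in a library, and do not say whether replicates of 1 diet were grown apart; the p-values therefore reflect the scatter between libraries alone, part of which may be technical.

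Sperm are made in the testis from germline stem cells that divide into cysts of spermatocytes. Primary spermatocytes transcribe most genes that are needed later, and this programme depends on testis-specific homologues of the general transcription factor TFIID (the tTAFs) and on the tMAC complex. After meiosis the round spermatids grow a long flagellar tail beside paired mitochondrial derivatives, replace their histones with protamine-like proteins, and are finally separated from each other in a step called individualization. Transcripts of this programme are known from the male germline, so in RNA of whole flies less testis RNA per male, smaller testes and fewer males in a sample cannot be told apart.

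Total counts lay between 21147212 and 25497099 per library. In a principal component analysis of all 12529 genes tested, the first component held 44.6% of the variance and the second 41.9%. On the first, glucose 2 (50.3) lay furthest out, with glucose 1 at 5.60, galactose 1 at -16.7 and galactose 2 at -39.2. On the second, glucose 1 (49.0) lay furthest out, with glucose 2 at -26.5, galactose 1 at 8.07 and galactose 2 at -30.5. The 2 glucose libraries thus did not lie together. Levels below are CPM, read counts scaled to a common library total after TMM normalization, and fold changes are galactose over glucose.

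The sperm transcripts were highest in one glucose library and lowest in the other, with both galactose libraries in between. Summed over the 31 genes, the level was 5985 CPM in glucose 1 and 1872 CPM in glucose 2, against 3063 and 2724 CPM in galactose 1 and 2. The 2 galactose libraries thus lay close to each other and inside the range of the 2 glucose libraries. The mean was 3928 ± 2908 CPM (SD, n = 2) on glucose and 2893 ± 240 CPM on galactose, a ratio of 0.736, and the difference between diets was smaller than the spread between the glucose libraries. In raw counts the 31 genes took 0.602% of glucose 1, 0.173% of glucose 2, 0.312% of galactose 1 and 0.287% of galactose 2.

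**Figure D1:**
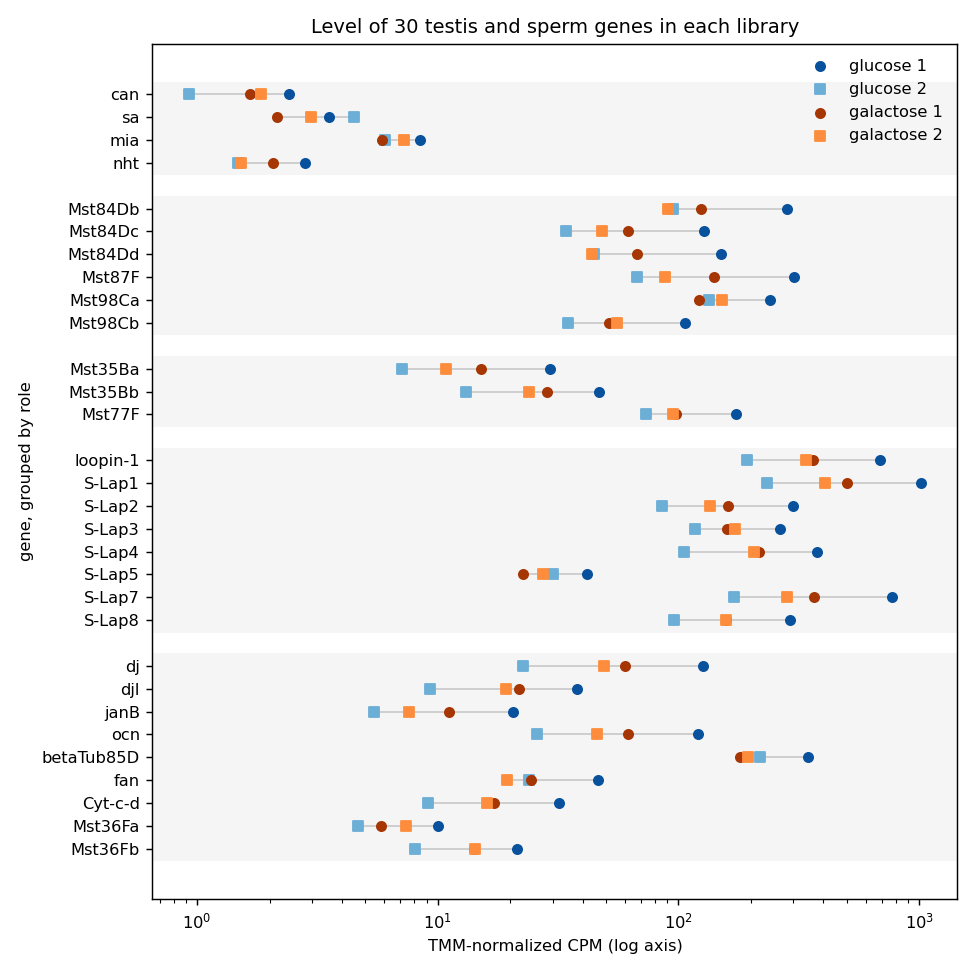
Level of the 30 tested genes in each library, in TMM-normalized CPM on a log axis, with genes grouped by role from spermatocyte regulators (top) to other sperm and spermatid genes (bottom). Circles and squares are single libraries, the grey line joins the lowest and highest, and glucose 1 is the highest library for 29 of the 30 genes.

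By edgeR's quasi-likelihood test no member passed for the diets: 0 of 30 reached an adjusted p of 0.05 (Benjamini-Hochberg over all 12529 genes, of which 0% were called), with adjusted p from 0.621 to 0.978. No member had an unadjusted p under 0.05 either. Of all 12529 genes tested, 647 (5.16%) were at that p and lower on galactose, and 386 (3.08%) at that p and higher. DESeq2 called 0 members, against 0.718% of all genes, and limma-voom called 0 members, against 0% of all genes. The authors' deposited table gave the members adjusted p between 0.680 and 0.991. The remaining gene, Mst84Da, had no count in any library and was not tested.

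Lower means on galactose were frequent but did not separate the libraries. The log2 fold change was negative for 29 of the 30 members, against 53.1% of all genes, with a median of -0.42 beside -0.04 for all genes. Both galactose libraries were below both glucose libraries for 3 members, sa, S-Lap5 and betaTub85D, which is 10% beside 23.4% of all genes. No member was above both glucose libraries in both galactose libraries, beside 18.8% of all genes. The sign of the median rested on glucose 1. Without glucose 1 the median turned to 0.73, with 4 of 30 members negative. Without glucose 2 it was -0.91, with 30 of 30 negative, and without galactose 1 or 2 it was -0.48 or -0.30.

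**Figure D2:**
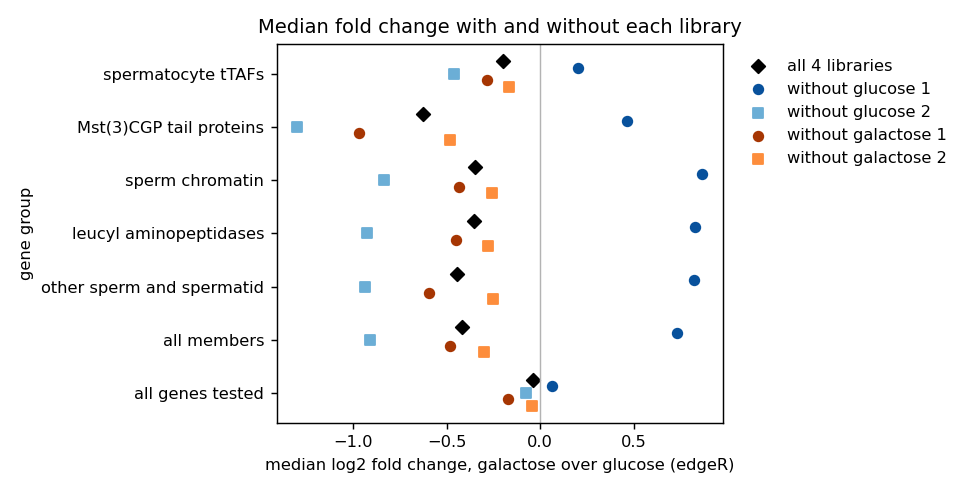
Median log2 fold change (galactose over glucose, edgeR) of each gene group, with all 4 libraries (black diamonds) and without each library in turn (coloured symbols). Every group lies right of 0 without glucose 1 and left of 0 in the other 4 cases, from 0.73 to -0.91 for all members, while the median of all genes stays between -0.17 and 0.06.

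The larger difference was between the 2 glucose libraries. The level in glucose 1 was over 2 times that in glucose 2 for 23 of the 30 members, against 14.2% of all genes, and over 3 times for 17, against 6.09%. The median ratio was 3.21. The order with glucose 1 highest and glucose 2 lowest held for 22 members, against 14.4% of all genes, and the reverse order held for 0 members, against 5.84%. Ratios of galactose 1 to galactose 2 ran from 0.728 to 1.60 over the 30 tested members, with a median of 1.10. The glucose libraries were further apart than the galactose libraries for 29 members, against 57.5% of all genes. These counts describe single libraries of 1 diet and carry no test.

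**Figure D3:**
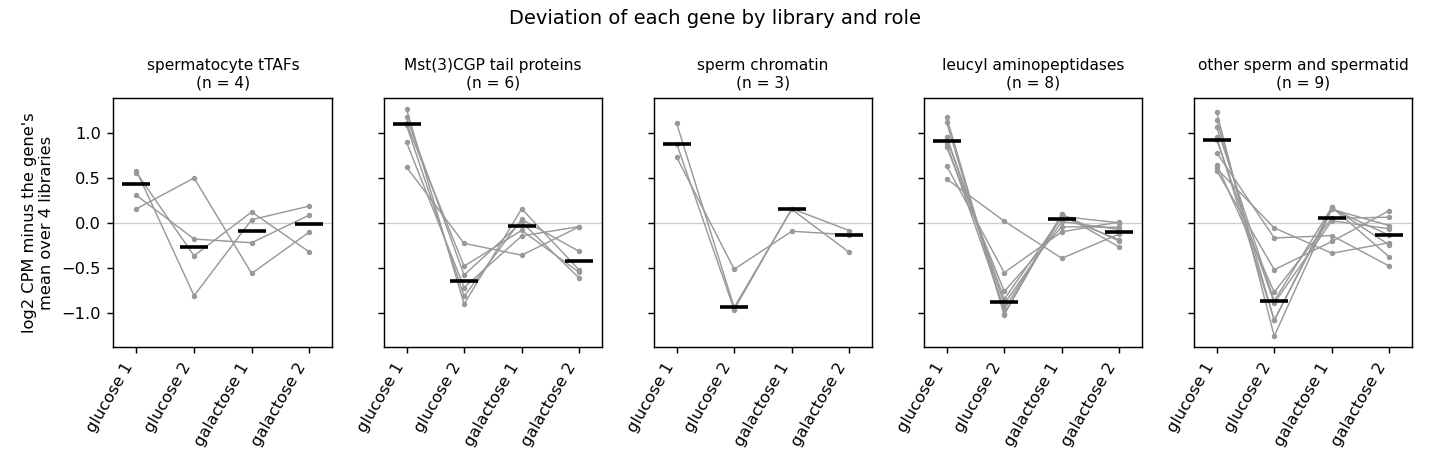
Log2 CPM of each gene minus its own mean over the 4 libraries, in 5 panels by role. Grey points joined by a line belong to 1 gene (the libraries have no order), and black bars are the medians. Outside the spermatocyte tTAFs every gene is highest in glucose 1, and for 20 of these 26 genes glucose 2 is the lowest.

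The spermatocyte regulators, which act first, were the least abundant tested members per exonic length. can, a homologue of the TFIID subunit TAF5 (FBgn0011569, chromosome 3L, 10263909 to 10267111, BDGP6), was at 2.42 and 0.926 CPM in glucose 1 and 2 and at 1.66 and 1.84 CPM in galactose 1 and 2, from 20 to 62 counts a library. sa, a homologue of TAF8 (FBgn0002842, 3L, 21405425 to 21406738), was at 3.55 and 4.49 CPM on glucose and at 2.16 and 2.97 CPM on galactose. It was the single member with a higher level in glucose 2 than in glucose 1, and its galactose libraries lay below both, with a log2 fold change of -0.65 ± 0.40 (SE) that did not pass edgeR's test (adjusted p = 0.660) and was -0.81 without glucose 1. mia, a homologue of TAF6 (FBgn0014342, 3R, 5548115 to 5551168), was at 8.42 and 6.02 CPM on glucose and 5.85 and 7.23 CPM on galactose. nht, a homologue of TAF4 (FBgn0041103, 2L, 15317954 to 15318901), was at 2.81 and 1.48 CPM on glucose and 2.08 and 1.53 CPM on galactose. The diets overlapped for can, mia and nht. Ratios of glucose 1 to glucose 2 were 2.61 for can, 1.89 for nht, 1.40 for mia and 0.789 for sa. For can and nht glucose 1 was highest and glucose 2 lowest, as for most members. Summed over the 4 genes, glucose 1 exceeded glucose 2 by a ratio of 1.33, compared with 3.21 for the other 27 members.

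Further spermatocyte genes differed in whether glucose 1 exceeded glucose 2. The 12 other genes listed with the tTAFs and tMAC, all tested, summed to 67.6 and 69.7 CPM in glucose 1 and 2. Their sums were 53.5 and 60.8 CPM in galactose 1 and 2. Their median log2 fold change was -0.50 and 11 were negative, beside 53.1% of all genes. By edgeR 0 passed, with 1 at an unadjusted p under 0.05, and DESeq2 called 0. Among all genes tested, 5.16% were at that unadjusted p and lower on galactose, 3.08% at that p and higher. DESeq2 called 0.718% of them. Both galactose libraries were lower for 8 of the 12, beside 23.4% of all genes. Depth limits the lowest genes of this list, in which the most abundant, achi, had 283 to 329 counts a library. The order with glucose 1 highest and glucose 2 lowest held for 0 of the 12, beside 14.4%. The most abundant 3, the homeodomain genes achi and vis and the bromodomain gene tbrd-1, had ratios of glucose 1 to glucose 2 of 0.778, 0.965 and 1.10. The 8 genes for spermatocyte meiosis and its timing summed to 336.2 and 198.7 CPM on glucose, a ratio of 1.69, and to 287.0 and 344.2 CPM on galactose. Of these, fest, the most abundant, was at 128.4, 55.8, 77.4 and 72.5 CPM in glucose 1, glucose 2, galactose 1 and galactose 2. In these libraries bol, a translation regulator of meiotic entry, was at 114.1, 46.5, 87.2 and 69.0 CPM. For both genes glucose 1 was highest and glucose 2 lowest, as for most sperm genes. That order held for 2 of the 8, beside 14.4% of all genes. In contrast twe, the meiotic Cdc25 phosphatase that is also used in the ovary, was at 45.0 and 37.6 CPM on glucose and 57.3 and 84.1 CPM on galactose, above both glucose libraries (log2 fold change 0.78 ± 0.29 SE, edgeR adjusted p = 0.591). This list had 4 negative and 4 positive log2 fold changes with a median of 0.26. In edgeR's test 0 passed and 3 had an unadjusted p under 0.05, and DESeq2 called 0. Both galactose libraries were higher for 3 of the 8, beside 18.8% of all genes, and lower for 2, beside 23.4%.

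The sperm tail proteins of the Mst(3)CGP family, small proteins with repeats of cysteine, glycine and proline, included 3 of the 5 highest members per exonic length, Mst84Db, Mst87F and Mst84Dc, while Mst98Cb was at 58.2 CPM per kilobase of exon. 4 of the 7 family genes lie in a cluster on 3R between 7363307 and 7366262. Mst84Db (FBgn0004173, 3R, 7365160 to 7365627) was at 283.2 and 94.6 CPM in glucose 1 and 2 and at 124.5 and 90.1 CPM in galactose 1 and 2. Mst84Dc (FBgn0004174) was at 127.2 and 34.2 CPM on glucose and at 61.8 and 48.3 CPM on galactose. Mst84Dd (FBgn0004175) was at 150.6 and 44.8 CPM on glucose and at 67.2 and 43.7 CPM on galactose. In all 3 genes glucose 1 was over 2 times any other library. The log2 fold change of Mst84Dd, -0.82 ± 0.55 (SE), was the lowest of all members and did not pass edgeR's test (adjusted p = 0.680).

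Mst84Da (FBgn0004172, 3R, 7365850 to 7366262), which lies at the highest coordinates of the cluster, was listed at 0 in all 4 libraries, although its 3 neighbours in the cluster had from 739 to 7269 counts. Exons of the gene MstProx on the opposite strand cover 75.1% of its 358 exonic bases, and no strand setting of the counting is given in the sources used here. MstProx itself had 8, 2, 6 and 2 counts. The 0 is therefore uncertain as a level, and whether reads over both genes were left out of the counting was not tested.

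Mst87F (FBgn0002862, 3R, 13827151 to 13828008), on the same arm but outside the cluster, was at 301.2 and 67.5 CPM on glucose and 140.3 and 87.6 CPM on galactose. Its glucose libraries differed by a ratio of 4.46 (95% interval 4.22 to 4.72, exact binomial, counting error only), the largest in the family. Mst98Ca (FBgn0002865, 3R, 28291338 to 28292656) was at 239.7 and 133.4 CPM on glucose and 121.8 and 151.6 CPM on galactose. Its neighbour Mst98Cb (FBgn0004171), 141 bases away, was at 106.1 and 34.8 CPM on glucose and 51.7 and 55.5 CPM on galactose. The pair differed in spread: glucose 1 exceeded glucose 2 by a ratio of 1.80 for Mst98Ca and 3.05 for Mst98Cb. All 6 tested family genes had negative log2 fold changes, with a median of -0.62. Without glucose 2, 3 of them passed edgeR's test, Mst84Db, Mst84Dd and Mst87F, with log2 fold changes of -1.39, -1.44 and -1.40 and adjusted p of 0.0161, 0.0175 and 0.0157. That fit called 147 of all 12925 genes tested (1.14%), and the fourth member it called was S-Lap7. Without glucose 1 the family's median was 0.47 and edgeR called 0 of the 30 members, beside 549 of 12742 genes (4.31%). Without galactose 1 or galactose 2 it called 0 members and 0% of all genes.

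Genes of sperm chromatin replace histones in the nucleus of the late spermatid. Mst77F (FBgn0086915, 3L, 20816901 to 20818027), a linker-histone-like sperm protein, was at 173.0 and 73.0 CPM on glucose and at 97.8 and 95.2 CPM on galactose. The protamine-like genes Mst35Ba (FBgn0013300, 2L, 14879050 to 14881652) and Mst35Bb (FBgn0013301, 2L, 14882101 to 14883721) are near-identical neighbours, so the split of reads between them is uncertain. Mst35Ba was at 29.3 and 7.13 CPM on glucose and 15.1 and 10.9 CPM on galactose. Mst35Bb was at 46.7 and 13.1 CPM on glucose and 28.3 and 24.0 CPM on galactose. In each of the 3 genes both galactose libraries lay between the glucose libraries, and ratios of glucose 1 to glucose 2 were 2.37, 4.11 and 3.58. Mst77F has related copies on the Y chromosome, which makes its count uncertain as well. The group's median log2 fold change was -0.35, and the smallest adjusted p by edgeR was 0.796.

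The sperm leucyl aminopeptidases, abundant proteins of the mature sperm that are associated with its mitochondrial derivatives, made most of the summed CPM. This sum is not corrected for gene length, and S-Lap1 has 2121 exonic bases against 415 for Mst84Db. They made 3750 of the 5985 CPM in glucose 1, 1029 of 1872 in glucose 2, 1946 of 3063 in galactose 1 and 1729 of 2724 in galactose 2. S-Lap1 (FBgn0035915, 3L, 8617235 to 8619474), which had the highest CPM of all members in every library, was at 1017 and 232.4 CPM on glucose and at 502.0 and 408.0 CPM on galactose. S-Lap7 (FBgn0033868, 2R, 13778124 to 13780245) was at 769.1 and 170.1 CPM on glucose and at 365.5 and 283.8 CPM on galactose, and loopin-1 (FBgn0259795, 2R, 16534943 to 16537086) was at 690.6 and 192.3 CPM on glucose and at 361.9 and 340.3 CPM on galactose. For each of these genes the glucose libraries enclosed the galactose libraries. Their log2 fold changes were -0.46 ± 0.60, -0.53 ± 0.62 and -0.33 ± 0.53 (SE), with edgeR adjusted p of 0.819, 0.796 and 0.852. The log2 fold change of S-Lap7 was -1.24 without glucose 2 and 0.93 without glucose 1.

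S-Lap4 (FBgn0052064, 3L, 10490861 to 10492934), which lies in an intron of Rbfox1 on the same strand, was at 376.9 and 105.8 CPM on glucose and at 215.5 and 205.5 CPM on galactose. S-Lap2 (FBgn0052351), 413 bases from S-Lap1, was at 298.6 and 85.6 CPM on glucose and at 161.3 and 135.1 CPM on galactose. S-Lap8 (FBgn0034132) was at 291.4 and 96.0 CPM on glucose and at 157.7 and 157.1 CPM on galactose. These 3 followed the same order of libraries, with ratios of glucose 1 to glucose 2 from 3.04 to 3.56. S-Lap3 (FBgn0045770) was at 265.0 and 116.8 CPM on glucose and at 159.8 and 172.2 CPM on galactose, a smaller ratio of 2.27. S-Lap5 (FBgn0033860, 2R, 13596677 to 13598750), the least abundant of the family, was the exception. It was at 41.7 and 30.2 CPM on glucose and at 22.7 and 27.3 CPM on galactose, so that the diets did not overlap, with a log2 fold change of -0.52 ± 0.29 (SE) and an edgeR adjusted p of 0.639. Without glucose 1 that fold change was -0.27.

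The share of each gene in the family was also followed. Per kilobase of exon, S-Lap1 made between 23.2% and 27.6% of the summed aminopeptidase level across the 4 libraries, S-Lap7 between 16.8% and 20.9%, and loopin-1 between 18.5% and 20.0%. S-Lap2 stayed between 8.12% and 8.68%. The largest relative shifts were in the genes with the smallest shares and the smallest ratios, S-Lap3, from 5.06% in glucose 1 to 8.22% in glucose 2, and S-Lap5, from 1.16% to 3.08%.

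**Figure D4:**
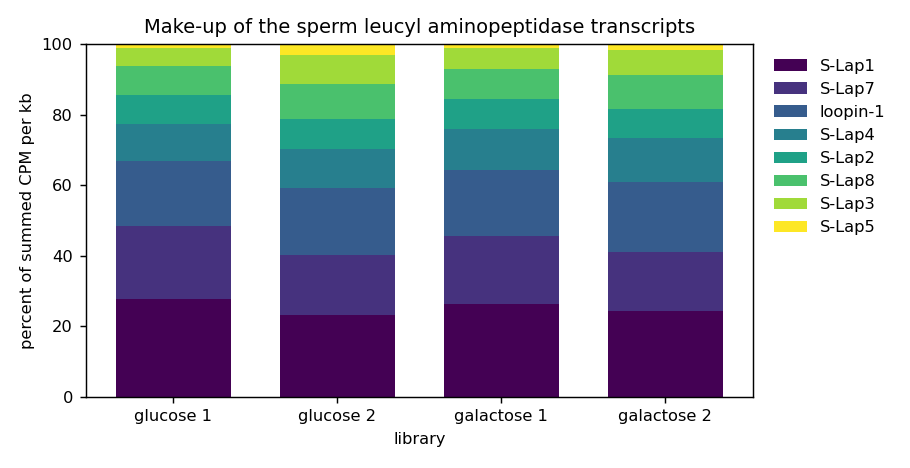
Share of each sperm leucyl aminopeptidase gene in the family's summed CPM per kilobase of exon (vertical axis, percent), one stacked bar per library. S-Lap1 lies between 23.2% and 27.6% in the 4 bars, S-Lap3 between 5.06% and 8.22% and S-Lap5 between 1.16% and 3.08%, while the summed CPM differed by a ratio of 3.64 between glucose 1 and glucose 2.

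Among the other spermatid genes, the don juan gene dj (FBgn0019828, 3R, 7059315 to 7060524), which encodes a protein of the sperm tail, had the widest spread of all members. It was at 126.9 CPM in glucose 1 and 22.7 CPM in glucose 2, a ratio of 5.59 (95% interval 5.08 to 6.16, counting error only), and at 60.3 and 49.2 CPM in galactose 1 and 2. Its neighbour djl (FBgn0037463), 242 bases away, was at 37.9 and 9.31 CPM on glucose and at 21.8 and 19.2 CPM on galactose. Both genes had their galactose libraries between the glucose libraries. Their log2 fold changes were -0.45 ± 0.68 and -0.20 ± 0.59 (SE), with edgeR adjusted p of 0.843 and 0.917, and turned to 1.27 and 1.14 without glucose 1.

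The testis genes ocn (FBgn0041102, 3R, 30037003 to 30037730) and janB (FBgn0001281, 3R, 30037984 to 30038728) are neighbouring members of the janus family. ocn was at 120.7 and 25.8 CPM on glucose and at 61.6 and 46.1 CPM on galactose. janB was at 20.6 and 5.42 CPM on glucose and at 11.1 and 7.59 CPM on galactose, and 18.8% of its exonic bases overlap janA on the same strand, which makes its count uncertain. Both followed the same order of libraries. Cyt-c-d (FBgn0086907, 2L, 16715891 to 16719635), the testis cytochrome c gene that is needed for caspase activation in individualizing spermatids, was at 31.8 and 9.08 CPM on glucose and 17.1 and 16.0 CPM on galactose. Its count is also uncertain, since 36.4% of its exonic bases overlap CG31808 on the opposite strand. The male-specific transcript Mst36Fa (FBgn0086681) was at 10.0 and 4.68 CPM on glucose and 5.81 and 7.37 CPM on galactose, and Mst36Fb (FBgn0261349) was at 21.3 and 8.01 CPM on glucose and 14.1 and 14.2 CPM on galactose. For these pairs and for Cyt-c-d the diets overlapped.

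betaTub85D (FBgn0003889, 3R, 9408383 to 9410282), the testis beta-tubulin of the meiotic spindle and the sperm axoneme, had the smallest p of all members. It was at 344.4 and 218.2 CPM in glucose 1 and 2 and at 179.6 and 194.7 CPM in galactose 1 and 2. Both galactose libraries were lower, with a log2 fold change of -0.59 ± 0.29 (SE), an unadjusted p of 0.0849 and an adjusted p of 0.621 by edgeR. fan (FBgn0028379, 3L, 8109132 to 8110043), a VAP family gene needed for sperm individualization, was at 46.2 and 24.0 CPM on glucose and at 24.4 and 19.3 CPM on galactose (-0.68 ± 0.37 SE, adjusted p = 0.634), with galactose 1 just above glucose 2. Without glucose 1 the log2 fold changes were -0.22 for betaTub85D and -0.13 for fan. For both genes glucose 1 exceeded glucose 2 by less than in most members, with ratios of 1.58 and 1.93.

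The levels were also compared between members per exonic length. The mean over the 4 libraries was 356.9 CPM per kilobase of exon for Mst84Db, 254.5 for S-Lap1, 239.4 for Mst87F, 187.1 for S-Lap7 and 187.0 for Mst84Dc. The lowest were can at 0.579, nht at 2.08, mia at 2.66 and sa at 3.44 CPM per kilobase. All 4 spermatocyte regulators were thus below every tested sperm gene, of which Mst36Fa was the lowest at 4.24. Ratios between adjacent genes, again per kilobase of exon, changed less than the levels. S-Lap1 was at 3.36, 2.68, 3.07 and 2.98 times S-Lap2 in glucose 1, glucose 2, galactose 1 and galactose 2, and ocn was at 5.38, 4.38, 5.09 and 5.58 times janB. Mst98Ca was at 1.83, 3.10, 1.91 and 2.21 times Mst98Cb, the pair with the widest range.

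Other genes of late sperm development, from lists that do not contain the members, also had their highest sums in glucose 1 and their lowest in glucose 2. The 17 post-meiotic cup and comet genes, transcribed in spermatids after meiosis, summed to 513.7 and 246.8 CPM in glucose 1 and 2 and to 313.9 and 339.6 CPM in galactose 1 and 2. Of 15 tested, 11 had glucose 1 highest and glucose 2 lowest, beside 14.4% of all genes. A negative log2 fold change was found for 12, beside 53.1%. By edgeR 0 passed, 0 had an unadjusted p under 0.05, and DESeq2 called 0. Among all genes tested, 5.16% were at that unadjusted p and lower on galactose, 3.08% at that p and higher. DESeq2 called 0.718% of them. The most abundant, w-cup, was at 147.2, 48.7, 82.7 and 92.1 CPM in glucose 1, glucose 2, galactose 1 and galactose 2. In contrast m-cup, the next most abundant, was at 76.3, 63.3, 71.5 and 85.9 CPM, highest in galactose 2. The 12 Y-linked fertility genes, which include axonemal dyneins such as kl-3 and kl-5, summed to 25.5 and 8.89 CPM on glucose and 15.7 and 13.0 CPM on galactose. Of 10 tested, 8 had glucose 1 highest and glucose 2 lowest, beside 14.4% of all genes. Depth limits this list: kl-5, its most abundant gene, had 130, 28, 75 and 47 counts in glucose 1, glucose 2, galactose 1 and galactose 2. The edgeR test called 0 of the 10, 0 at an unadjusted p under 0.05, and DESeq2 called 0. The 15 other sperm chromatin and sperm structure genes summed to 676.7 and 402.2 CPM on glucose and 475.4 and 494.3 CPM on galactose. Of these, 8 were in the same order, beside 14.4% of all genes, and 11 had a negative log2 fold change, beside 53.1%. In edgeR's test 0 passed and 1 had an unadjusted p under 0.05, and DESeq2 called 0. Single genes of this list differed. The transition protein gene Tpl94D was at 48.2, 14.6, 29.0 and 29.3 CPM, while grsm, a leucyl aminopeptidase relative and the most abundant of the list, was at 214.5, 180.9, 211.2 and 231.4 CPM, highest in galactose 2 (log2 fold change 0.16).

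Transcripts of other male and female tissues moved only in part with the sperm genes. The 20 male accessory gland proteins, which are transferred in the seminal fluid, summed to 2505 and 1201 CPM in glucose 1 and 2 and to 1309 and 1651 CPM in galactose 1 and 2. Of the 19 tested, 10 had glucose 1 highest and glucose 2 lowest, beside 14.4% of all genes. Acp95EF was at 0 in every library. The 4 ejaculatory bulb and duct genes instead summed to 1532 and 1497 CPM on glucose and 830 and 950 CPM on galactose, led by EbpIII at 717.2, 937.6, 302.2 and 295.6 CPM. EbpII, the next most abundant, was at 488.3, 273.9, 294.5 and 407.5 CPM, with glucose 1 highest and glucose 2 lowest. The 3 dosage compensation genes roX1, roX2 and msl-2, which act in somatic cells of males, summed to 97.0 and 145.3 CPM on glucose and 67.9 and 113.0 CPM on galactose, so that the sum was lower in glucose 1 than in glucose 2. Most of it was roX1, at 84.9, 132.0, 57.5 and 101.4 CPM, while roX2 was at 1.83 and 1.48 CPM on glucose, higher in glucose 1. The ratio of glucose 1 to glucose 2 was 3.20 for the members, 2.09 for the accessory gland, 1.02 for the ejaculatory bulb and duct and 0.668 for dosage compensation. Of these 3 male lists edgeR called 0 genes, and 2 had an unadjusted p under 0.05. Among all genes tested, 5.16% were at that unadjusted p and lower on galactose, 3.08% at that p and higher. DESeq2 called EbpIII (adjusted p = 0.00618), beside 0.718% of all genes.

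On the female side, the 18 yolk and egg shell genes summed to 39489 and 34140 CPM on glucose and 35715 and 33688 CPM on galactose. Yp2 and Yp3, the most abundant of them, were lower in glucose 1 than in glucose 2, with ratios of 0.834 and 0.870. The egg shell gene Cp38, the next most abundant, went the other way, at 3671 and 1405 CPM on glucose, a ratio of 2.61, and 2889 and 3570 CPM on galactose. Of the 18 genes, 7 had glucose 1 highest and glucose 2 lowest, beside 14.4% of all genes, and 5 were over 2 times higher in glucose 1 than in glucose 2, beside 14.2%. By edgeR 0 of the 18 passed, 0 had an unadjusted p under 0.05, and DESeq2 called 0. The 16 genes of the female germline summed to 2629 and 3338 CPM on glucose and 3516 and 5148 CPM on galactose, with the lowest sum in glucose 1. Their log2 fold change was positive for 15 of 16, beside 5873 of all 12529 genes tested, with a median of 0.57. Both galactose libraries were above both glucose libraries for 10, beside 18.8% of all genes. By edgeR 0 passed, with 3 at an unadjusted p under 0.05, beside 5.16% of all genes at that p and lower on galactose and 3.08% higher. DESeq2 called 1, beside 0.718% of all genes. This was wisp, a cytoplasmic poly(A) polymerase of the oocyte, named after its values were seen. wisp was at 190.5 and 184.6 CPM on glucose and 364.1 and 488.7 CPM on galactose (DESeq2 adjusted p = 0.0391). oskar (osk), a determinant of the germ plasm, was at 138.1 CPM in glucose 1 and 629.6 CPM in glucose 2, a ratio of 0.219, and at 316.3 and 836.2 CPM in galactose 1 and 2. The other two most abundant genes of the list were not lower in glucose 1: bru1, a translation regulator of the oocyte, was at 463.8 and 396.9 CPM on glucose and 562.0 and 807.2 CPM on galactose, and exu, which acts in mRNA localization in the oocyte, was at 588.7 and 397.1 CPM on glucose and 523.9 and 569.4 CPM on galactose. The part that the sex make-up of the fly samples had in the levels of the sperm genes was not tested.

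**Figure D5:**
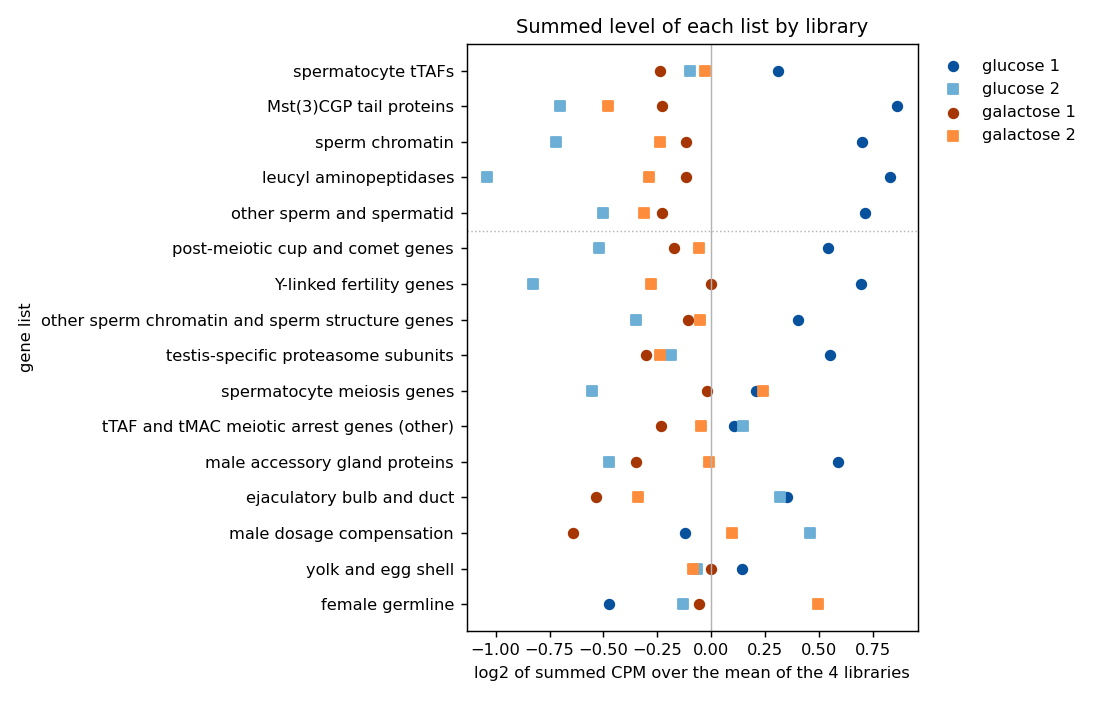
Log2 of each list's summed CPM in a library over its mean in the 4 libraries (horizontal axis), for the 5 member groups above the dotted line and 11 further lists below it. Glucose 1 lies furthest right for the member groups and the late sperm, testis proteasome, accessory gland, ejaculatory bulb and duct, and yolk and egg shell lists. It does not for the other genes listed with the tTAFs and tMAC, spermatocyte meiosis, dosage compensation and the female germline. Summed ratios of glucose 1 to glucose 2 run from 3.64 (leucyl aminopeptidases) to 0.668 (dosage compensation).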

How the data were processed

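Per the labels' protocols, poly-A RNA of whole flies was sequenced with a library kit that is not described as stranded. The authors deposited raw read counts per gene. HTSeq 0.6.1, TopHat2 2.0.12, Bowtie2 2.2.3 and DESeq2, with genome build BDGP6, are named in the submitters' processing notes. From the authors' deposited table of results, which per the file headers holds a log2 fold change, a p-value and an adjusted p-value, only the adjusted p is quoted.

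Members and lists were chosen with earlier results of these data known. Gene positions and exonic lengths follow annotation BDGP6.54, whose assembly release is that of the named build. All genes were tested with edgeR 4.0.16 in R 4.3.3 (quasi-likelihood F test, TMM, filterByExpr with minimum count 10 and minimum total 15, diet as the single factor), with Benjamini-Hochberg adjustment at 0.05. The SE is the log2 fold change over the square root of F. The code was tested on simulated data. Alternatives were DESeq2 1.42.0, limma-voom (limma 3.58.1), other scalings and filters, a replicate block, and fits without each library. From each further list up to 3 genes with the highest mean CPM could be named; Acp95EF, MstProx and wisp were chosen after their values were seen.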

Additional observations from a re-analysis of the deposited data

How the results depend on the processing

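Over 357 values (30 genes, 12 alternatives, fewer where a gene was filtered out), 312 kept the direction and the side of the threshold, 41 changed sign and 4 came to pass the test. Over the fits without each library, the number of members called was 0 to 4 (4 without glucose 2, beside 1.14% of all genes, and 0 without glucose 1, beside 4.31%), the median log2 fold change -0.91 to 0.73, the number lower in both galactose libraries 3 to 30, and the ratio of summed levels 0.483 to 1.55. Scaling by library totals alone gave 1 member lower in both galactose libraries. The share of all genes under that scaling was not counted. Without each library in turn, log2 fold changes ranged from -0.46 to 0.91 for can, -0.36 to 0.12 for mia, -0.63 to 0.28 for nht, -1.39 to 0.18 for Mst84Db, -1.20 to 0.68 for Mst84Dc, -1.44 to 0.31 for Mst84Dd, -1.40 to 0.75 for Mst87F, -0.80 to 0.034 for Mst98Ca, -0.98 to 0.62 for Mst98Cb, -1.17 to 0.87 for Mst35Ba, -0.83 to 1.00 for Mst35Bb, -0.84 to 0.40 for Mst77F, -0.97 to 0.87 for loopin-1, -1.16 to 0.97 for S-Lap1, -1.01 to 0.79 for S-Lap2, -0.67 to 0.51 for S-Lap3, -0.83 to 0.99 for S-Lap4, -1.24 to 0.93 for S-Lap7, -0.88 to 0.71 for S-Lap8, -1.21 to 1.27 for dj, -0.88 to 1.14 for djl, -1.13 to 0.79 for janB, -1.16 to 1.06 for ocn, -0.94 to 0.87 for Cyt-c-d, -0.60 to 0.49 for Mst36Fa and -0.58 to 0.82 for Mst36Fb. In these fits the lone library of a diet was assumed to vary like the other diet. For Mst36Fb the value was 0.015 with median-of-ratios scaling, 0.024 with library totals, 0.015 with DESeq2 and 0.092 with limma-voom, and for can it was -0.080 with upper-quartile scaling, which moved the median of all genes to -0.15. limma-voom gave 0.055 for Mst35Bb, 0.067 for S-Lap4, 0.0085 for dj and 0.091 for djl. With the replicate number as a block these 4 were 0.065, 0.074, 0.0068 and 0.11 and Mst36Fb was 0.11; the block called 0 members and gave a median of -0.15. Same-numbered libraries deviated together only weakly (r = 0.21 across 12529 genes, which are not independent), and nothing in the labels pairs them. The causes of these changes were not tested. Among the members, depth limits can, nht and sa, at 20 to 97 counts a library. It also limits the Y-linked list and the lowest of the other genes listed with the tTAFs and tMAC.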

Other observations

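The testis-specific proteasome subunits, which replace their general counterparts in developing sperm, were all tested. All 13 had a negative log2 fold change, beside 53.1% of all genes, with a median of -0.49, and 0 passed edgeR's test (adjusted p from 0.620 to 0.846). Both galactose libraries were below both glucose libraries for 5 of them, beside 23.4% of all genes, and 5 had glucose replicate 1 highest and glucose replicate 2 lowest, beside 14.4%. Their summed level was 156.0 CPM in glucose replicate 1, 93.8 in glucose replicate 2, 86.5 in galactose replicate 1 and 90.3 in galactose replicate 2. Listed in that sequence of libraries, Prosbeta5R1, the most abundant, was at 22.1, 9.08, 11.1 and 11.9 CPM. It had glucose replicate 1 highest and glucose replicate 2 lowest. Prosalpha6T was at 18.5, 11.8, 9.88 and 8.54 CPM, with both galactose libraries lower. Rpt3R was at 13.9, 14.1, 11.2 and 10.5 CPM, with no excess in glucose replicate 1.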
